A study of Canis lupus familiaris with 8 samples.

Results

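Nitric oxide synthesis and cyclic GMP breakdown were described through 5 genes, NOS3, SPR, PRMT1, PDE5A and CAV1. They were taken by name as every probe set that carried 1 of these symbols alone in the annotation of the array, which gave 9 of the 23836 probe sets tested and 5 of the 6540 genes with a symbol. NOS3 had 3 probe sets, PDE5A and CAV1 had 2 each, and SPR and PRMT1 had 1 each. Each dog gave 1 Affymetrix Canine Genome Array, hybridised with RNA of heart tissue, which the methods give as left ventricle. The labels name 4 dogs as controls (D5, D6, D7, D8), and 4 others (0292, 0294, 1087, 1111) had alloxan-induced type I diabetes and are called DM dogs. All were male mongrel dogs of 23 to 27 kg by their labels, and their ages are not stated. The methods describe the same thoracotomy and instrumentation for both groups. DM dogs had received alloxan, which destroys pancreatic beta cells, at 40 to 60 mg/kg iv, and entered the group only with a fasting blood glucose above 200 mg/dl on day 7. Dogs with too low a glucose some days after the injection were given alloxan again, and the labels do not say which. DM hearts were taken 4 weeks after alloxan.

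Endothelial nitric oxide synthase, the product of NOS3, makes nitric oxide from arginine in the cells that line blood vessels. The enzyme needs tetrahydrobiopterin, whose last step of synthesis is catalysed by sepiapterin reductase (SPR). It is held in caveolae by caveolin-1 (CAV1), which inhibits it, and it is inhibited by asymmetric dimethylarginine, which is released when proteins methylated by PRMT1 are degraded. Nitric oxide activates soluble guanylate cyclase, and the cyclic GMP so formed relaxes smooth muscle until phosphodiesterase 5 (PDE5A) breaks it down.

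Signals are the MAS 5.0 intensities as deposited, on a linear scale. Log2 values were taken after quantile normalization, which gives all arrays the same distribution, and after an offset of 16 was added to each signal. The offset narrows differences between weak signals, so each difference is also given without it. With the tissue as a whole on the array, fewer cells of a type and less RNA per cell cannot be told apart. In DM dogs SPR and PRMT1 had lower values, and PDE5A had higher values by 1 probe set and not by the other. The values of NOS3 and CAV1 overlapped those of control dogs in each of their probe sets. None of the 9 probe sets passed an adjusted p under 0.05 from limma, which 0.0168% of all tested probe sets passed. At an unadjusted p under 0.05 from limma, 2 of the 9 were lower (SPR and PRMT1), where 8.87% of all probe sets were, and 1 of the 9 was higher (PDE5A), where 7.84% were. Without offset these were the same 3 probe sets, beside 7.96% lower and 7.89% higher of all. The groups did not overlap in the same 3, where 5.85% of all probe sets were lower and 4.93% higher without overlap. By the nominal threshold of the methods' t-test together with a change of at least 2-fold, SPR and PRMT1 were lower, where 2.52% of all were, and 0 of the 9 were higher, where 2.45% were. Without offset, SPR met both criteria and PRMT1 did not. After Benjamini-Hochberg adjustment of the methods' t-test, run here on the same log2 values without the variance stabilization that the methods name, SPR alone passed (adjusted p = 0.00337). This pass of SPR was lost without quantile normalization. There its adjusted p from the same test was 0.0812 with the offset and 0.112 without. The median log2 difference of the 9 probe sets was -0.60, and that of all probe sets was 0.06.

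**Figure D1:**
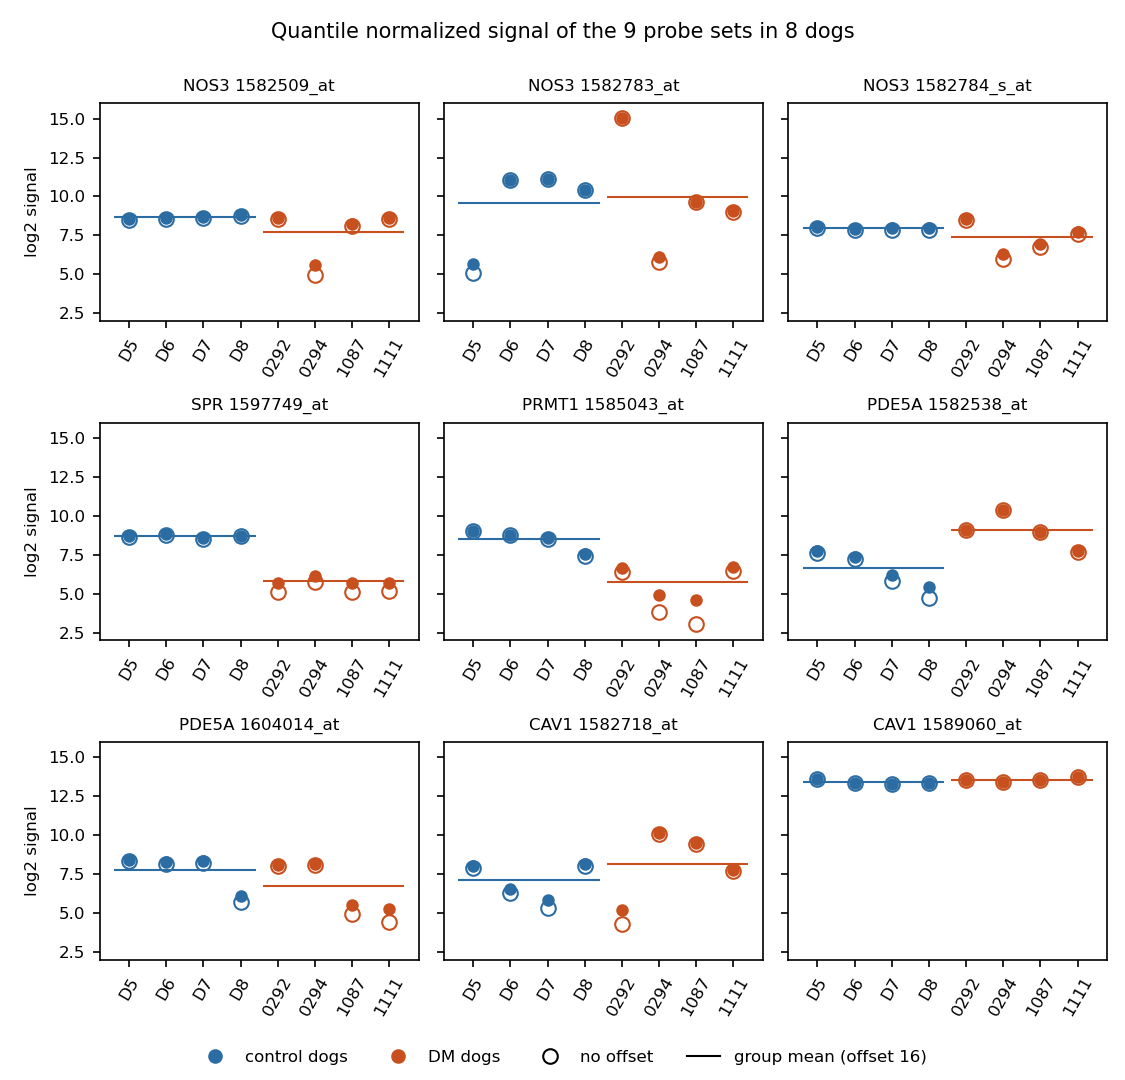
Log2 signal (y axis) of the 9 probe sets of NOS3, SPR, PRMT1, PDE5A and CAV1 in each of 8 dogs (x axis), after quantile normalization. Filled points have an offset of 16 and open points have none, blue marks control dogs, orange marks DM dogs, and lines are group means with the offset. SPR is at 8.55 to 8.84 in control dogs and 5.67 to 6.10 in DM dogs, and CAV1 1589060_at is at 13.32 to 13.77 in all dogs.

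SPR makes the last reaction on the way to tetrahydrobiopterin. Its deposited signals were 316, 402, 292 and 397 in D5, D6, D7 and D8, and 64.4, 54.0, 32.6 and 19.9 in 0292, 0294, 1087 and 1111. Every DM dog thus lay below every control dog, and the highest DM signal was less than the lowest control signal by a wide margin. With the offset, the mean of SPR in control dogs was 8.70 ± 0.12 log2, and its mean in DM dogs was 5.78 ± 0.21 (SD, n = 4 per group). The log2 difference, DM minus control, was -2.92 (SE 0.53, 95% interval -4.07 to -1.78), or 7.57-fold lower, with an adjusted p of 0.0609 from limma. Without offset the difference was -3.37 (SE 0.58, adjusted p = 0.0787 from limma), or 10.3-fold. Ranked by p, SPR stood at place 32 of all probe sets with the offset and at place 34 without.

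The rank of a signal within its own array depends on neither the offset nor the scaling. SPR lay above 72.1% to 76.5% of the tested probe sets in control dogs, and above 23.7% to 30.2% in DM dogs. The DM values lie in the lower part of each array. Without detection calls it is not known whether they were above background. The difference stayed between -3.02 and -2.84 without each dog in turn. The adjusted p from limma was 0.0374 without D8 and 0.0353 without 1111, and between 0.0690 and 0.270 without any 1 of the other dogs. It was 0.0256 without D8 and 0292 together, which was chosen after seeing the data.

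PRMT1, the main arginine methyltransferase of type I, had deposited signals of 476, 379, 300 and 189 in D5, D6, D7 and D8. In 0292, 0294, 1087 and 1111 they were 142, 18.2, 9.08 and 63.4. The groups did not overlap, but D8 at 189 and 0292 at 142 lay close to each other. With the offset, the mean of PRMT1 in control dogs was 8.49 ± 0.65 log2, and its mean in DM dogs was 5.72 ± 1.12 (SD, n = 4 per group). The difference was -2.78 log2 (SE 0.68, 95% interval -4.25 to -1.31), or 6.86-fold lower, with an adjusted p of 0.0884 from limma. Without offset it was -3.49 (SE 0.90, adjusted p = 0.142 from limma), or 11.2-fold. The signal of dog 1087 lay above 1.20% of the probe sets of its array and that of 0294 above 8.55%, and these weakest signals are where the offset counts most. As for SPR, it is not known whether they were above background, and both folds of PRMT1 carry that limit. Control dogs lay above 51.9% to 79.0% of their arrays, with D8 as the lowest, and 0292 and 1111 above 37.7% and 38.0%. Without each dog in turn the difference was -3.12 to -2.42, with an adjusted p from limma of 0.0501 to 0.313. Without D8 and 0292 together it was -3.40 (adjusted p = 0.0337 from limma).

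PDE5A, which hydrolyses cyclic GMP and is the target of sildenafil, gave opposite differences by its 2 probe sets, which were designed from 2 different sequences. For 1582538_at the deposited signals were 115, 98.8, 54.8 and 28.3 in D5, D6, D7 and D8, and 824, 1052, 434 and 137 in 0292, 0294, 1087 and 1111. All DM dogs lay above all control dogs, although 1111 at 137 was near D5 at 115. With the offset the means were 6.68 ± 1.06 and 9.06 ± 1.08 log2 (SD, n = 4 each), a difference of 2.39 (SE 0.73, 95% interval 0.81 to 3.96), or 5.23-fold higher, with an adjusted p of 0.139 from limma. Without offset it was 2.65 (SE 0.85, adjusted p = 0.189 from limma). It was 1.95 to 2.80 without each dog in turn, at an adjusted p from limma of 0.0772 to 0.361.

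For PDE5A 1604014_at the deposited signals were 228, 208, 226 and 54.6 in D5, D6, D7 and D8. In 0292, 0294, 1087 and 1111 they were 521, 330, 29.1 and 12.9. D8 lay among the weaker DM dogs and 0292 and 0294 lay near D5, D6 and D7 after normalization, so the groups overlapped. The difference was -1.01 log2 with the offset (SE 0.84, adjusted p = 0.577 from limma) and -1.25 without (SE 1.03, adjusted p = 0.581 from limma). Without D8 it was -1.58 and the groups no longer overlapped (adjusted p = 0.357 from limma), although the share of all probe sets apart without D8 was not counted. The difference was -0.61 without 1087 and -0.50 without 1111. With array weights it was -1.83 (unadjusted p = 0.0257, adjusted p = 0.160 from limma), and without D8 and 0292 together -1.97 (unadjusted p = 0.0339, adjusted p = 0.184 from limma). Within each dog, the value of 1582538_at minus that of 1604014_at was -2.14 to -0.66 in control dogs and 1.00 to 3.46 in DM dogs. This gap averaged -1.09 ± 0.70 log2 for control and 2.30 ± 1.02 for DM dogs (SD, n = 4 per group, exact permutation test, two-sided p = 0.0286, no smaller value being possible in this design). It was the only 1 of 5 pairs of probe sets of the same gene with such a p, the others having exact p of 0.571 to 0.600, and the pairs were compared after the values had been seen. After subtraction of the group means, the 2 probe sets still had a Pearson r of 0.774 over the 8 dogs. The mean of both probe sets, taken as 1 value of PDE5A per dog, gave 0.69 (SE 0.76, adjusted p = 0.684 from limma).

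**Figure D2:**
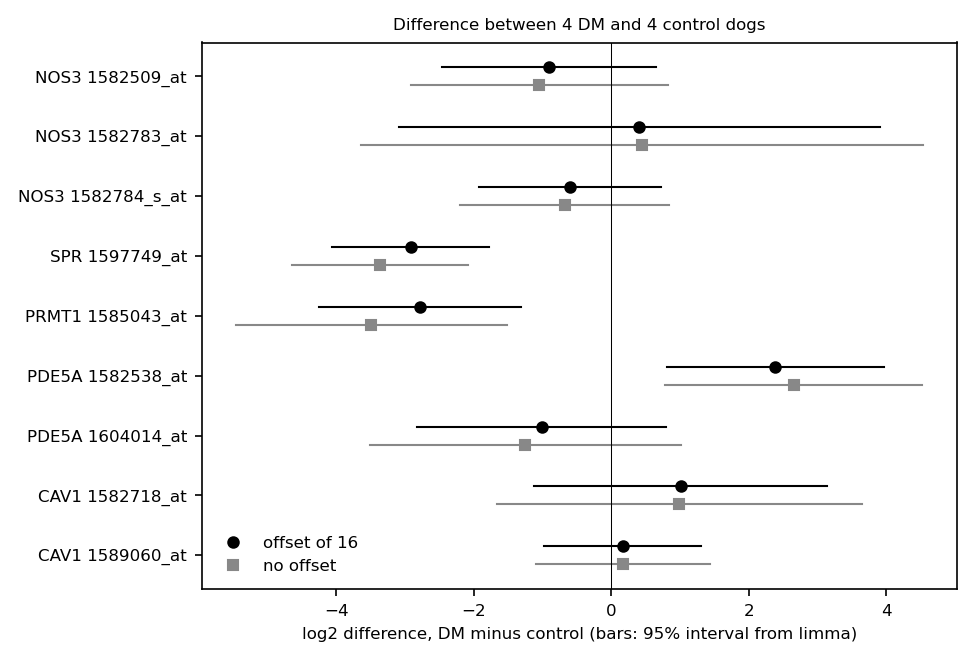
Log2 difference of DM minus control dogs (x axis, 4 dogs per group) for the 9 probe sets (y axis), with an offset of 16 (black circles) and with none (grey squares). Bars are 95% intervals from limma, which lie below 0 for SPR and PRMT1 and above 0 for PDE5A 1582538_at, and cross 0 for the other 6 probe sets.

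NOS3 was measured by 3 probe sets, of which 1582783_at and 1582784_s_at were designed from the same sequence. For 1582509_at the deposited signals were 275, 307, 324 and 409 in D5, D6, D7 and D8, and 683, 36.5, 279 and 259 in 0292, 0294, 1087 and 1111. For 1582784_s_at they were 151, 150, 159 and 246 in control dogs, and 662, 66.1, 108 and 131 in DM dogs, in the same order. In both, control dogs lay close together and DM dogs were spread, with 0294 the lowest of all 8 dogs and 0292 with the highest deposited signal. After normalization the difference was -0.91 log2 (SE 0.72, adjusted p = 0.558 from limma) for 1582509_at and -0.60 (SE 0.62, adjusted p = 0.660 from limma) for 1582784_s_at. Without offset these were -1.05 (SE 0.85) and -0.68 (SE 0.69). Both depended on single dogs, at -0.19 and -0.23 without 0294 and at -1.19 and -0.93 without 0292. Without 0292 the groups of 1582784_s_at no longer overlapped, with DM dogs lower (adjusted p = 0.344 from limma). The share of all probe sets that were apart without 0292 was not counted. With all 8 dogs the 95% intervals were -2.46 to 0.65 and -1.93 to 0.73, so neither a 2-fold lower nor an equal level in DM dogs lies outside them.

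The NOS3 probe set 1582783_at varied far more. Its deposited signals were 24.7, 2485, 2540 and 1310 in D5, D6, D7 and D8, and 26018, 55.1, 645 and 390 in 0292, 0294, 1087 and 1111. The highest signal was 1054 times the lowest, and the lowest was a control dog, D5, in which the other NOS3 probe sets were at the level of the other control dogs. Over the 8 dogs its log2 values spanned 9.41, and 0.00839% of all probe sets spanned more. The difference was 0.41 log2 (SE 1.62, 95% interval -3.09 to 3.91, adjusted p = 0.923 from limma) and 0.44 without offset. It became -0.84 without D5, -1.38 without 0292 and 1.63 without 0294, so its direction was set by single dogs. The mean of the 3 probe sets, taken as 1 value of NOS3 per dog, gave -0.37 (SE 0.89, adjusted p = 0.868 from limma).

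The spread of NOS3 within the groups was itself unequal. The SD over control dogs was 0.10 log2 for 1582509_at and 0.05 for 1582784_s_at, and over DM dogs it was 1.46 and 0.96. The DM SD was thus 15.1 and 18.5 times the control SD, ratios that 1.31% and 0.806% of all probe sets exceeded. Without quantile normalization the ratios were smaller, at 6.75 and 4.21. For 1582509_at, DM dog 0294 was at 5.57 log2 and the other DM dogs were at 8.20 to 8.61. With the offset, the DM SD was above the control SD in all 9 probe sets, as in 76.8% of all tested probe sets. The median ratio over all was 1.68, and SPR and PRMT1 were near it, at 1.77 and 1.73. PDE5A 1582538_at was at 1.01 and CAV1 1589060_at at 1.06. Without offset the ratio of PDE5A 1582538_at was 0.846, so its DM SD was then below its control SD. The spread was not tested between the groups.

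CAV1, the coat protein of caveolae in endothelial cells, adipocytes and smooth muscle, was among the strongest signals by 1589060_at. Deposited signals were 11238, 9057, 9302 and 11627 in D5, D6, D7 and D8, and 5754, 13506, 15476 and 17063 in 0292, 0294, 1087 and 1111. In every dog this signal lay above 98.1% to 98.6% of the tested probe sets. After normalization its mean was 13.41 ± 0.14 log2 for control and 13.57 ± 0.15 for DM dogs (SD, n = 4 per group), and the groups overlapped. The difference was 0.17 log2 with or without the offset (SE 0.53, 95% interval -0.98 to 1.31 with it, adjusted p = 0.904 from limma), and 0.10 to 0.24 without each dog in turn. Without D5 it was 0.24 and the groups no longer overlapped, with DM dogs higher (adjusted p = 0.910 from limma). The share of all probe sets that were apart without D5 was not counted. The values of 1589060_at spanned 0.45 log2 over the 8 dogs, and 0.0755% of all probe sets spanned less. Without quantile normalization the SD of this probe set was 0.72 log2 in DM dogs and 0.18 in control dogs. On that scale 0292 was at 12.49 and the other DM dogs at 13.72 to 14.06. The direction of this small difference was lost under 3 of 4 other scalings, at -0.37 after median centring, -0.047 after cyclic loess and -2.21 with arrays scaled to their hybridization controls.

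The weaker CAV1 probe set 1582718_at, designed from another sequence, had deposited signals of 146, 64.6, 38.5 and 278 in D5, D6, D7 and D8. In 0292, 0294, 1087 and 1111 they were 40.6, 881, 575 and 140. DM dogs 0294 and 1087 were the highest and 0292 was near the lowest, so the groups overlapped. The difference was 1.01 log2 (SE 0.99, adjusted p = 0.640 from limma) and 0.99 without offset (SE 1.21, adjusted p = 0.723 from limma). It was 2.07 without 0292 (unadjusted p = 0.0248, adjusted p = 0.192 from limma) and 0.36 without 0294. After subtraction of the group means, the 2 CAV1 probe sets had a Pearson r of 0.0385 over the 8 dogs, against 0.607 to 0.799 for the pairs of NOS3 probe sets. The mean of both gave 0.59 (SE 0.67, adjusted p = 0.696 from limma).

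**Figure D3:**
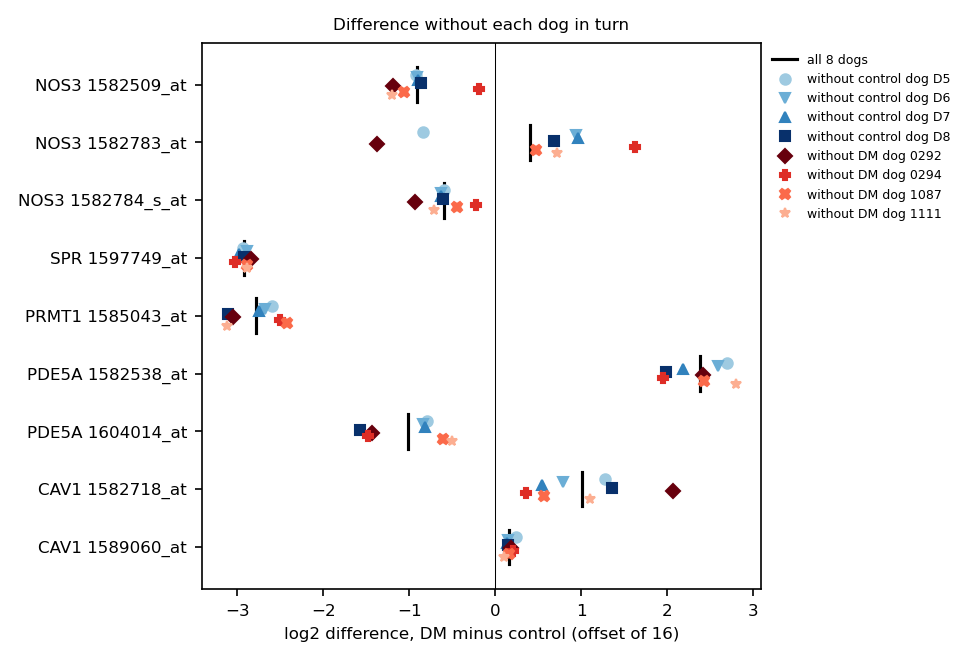
Log2 difference of DM minus control dogs (x axis) of the 9 probe sets (y axis) with each of the 8 dogs left out in turn (coloured symbols) and with all dogs (black line), at an offset of 16. SPR stays between -3.02 and -2.84, while NOS3 1582783_at runs from -1.38 without 0292 to 1.63 without 0294.

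A larger offset draws weak signals together. From no offset to offsets of 1, 4, 16 and 64, the SPR difference went from -3.37 to -3.33, -3.24, -2.92 and -2.17, and its adjusted p from limma went from 0.0787 to 0.0762, 0.0715, 0.0609 and 0.0267. The PRMT1 difference went from -3.49 to -1.96 over the same offsets (adjusted p = 0.142 to 0.0518) and that of PDE5A 1582538_at from 2.65 to 1.91 (adjusted p = 0.189 to 0.0899). None of the 9 differences changed direction with the offset. The number of all probe sets past an adjusted p under 0.05 was 0 at no offset and at offsets of 1 and 4, 4 at 16 and 445 at 64, so an SPR that passes at 64 passes together with many others.

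Scaling moved the median of all probe sets from 0.06 to 0.34 without quantile normalization, -0.25 after median centring and -1.65 with scaling to hybridization controls. Relative to these medians, SPR was at -3.06 to -2.98 and PRMT1 at -2.92 to -2.82 under the 5 scalings. The 5 are not separate checks. Median centring shifts whole arrays, so relative to the median it gives the same values as no quantile normalization. Scaling to hybridization controls also changes each array by 1 factor, and differs from these only through the offset. PDE5A 1582538_at was at 1.92 to 2.44 relative to the median. Its own value was 0.27 with scaling to hybridization controls (adjusted p = 0.830 from limma), so its higher level in DM dogs holds relative to other probe sets. NOS3 1582509_at and 1582784_s_at were below the median under each of the 5, by -1.12 to -0.47 and by -0.66 to -0.29.

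Other genes of the same reactions were read from the same fit, with 1 probe set per gene, that of the highest mean. The list of 74 such genes was fixed by name with earlier results of these data known, so its counts are a description and not a test. It holds genes that the authors already report, among them myoglobin, glutathione reductase, SOD1 and PDE1C as lower and CYBB (gp91) as higher. Here SOD1 was at -0.81 (SE 0.62, adjusted p = 0.538 from limma). CYBB was at 0.51 (SE 0.53, adjusted p = 0.668 from limma), higher without overlap, as were 395 of all 6540 genes. Of the 74, 36 were on the array, of which 28 were lower and 8 higher in DM dogs. Of all 6540 genes, 3429 were lower and 3111 higher. The median log2 difference of the 36 was -0.61 against -0.07 over all genes. At an unadjusted p under 0.05 from limma, 8 of the 36 were lower and 0 higher, where 11.7% and 8.24% of all genes were. None of the 36 passed an adjusted p under 0.05 from limma. Adjusted p values of the genes named here ran from 0.0609 upwards.

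Besides SPR, the array held 2 genes of tetrahydrobiopterin, QDPR, which regenerates it from the oxidised form, and PCBD1, a dehydratase of its recycling. The mean of QDPR was 12.03 ± 0.35 log2 for control and 10.81 ± 0.33 for DM dogs (SD, n = 4 per group), a difference of -1.22 (SE 0.55, adjusted p = 0.284 from limma). All 4 QDPR probe sets were lower, from -2.01 to -0.47, and 3 of them had an unadjusted p under 0.05. PCBD1 had a difference of -2.28 (SE 0.98, adjusted p = 0.262 from limma) in its strongest probe set, but its other probe sets were higher, at 1.57 and 1.33. GCH1, the rate-limiting enzyme of the pathway, and PTS were not analysed here.

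Among genes of methylarginines, DDAH2, which degrades asymmetric dimethylarginine, had a difference of -1.71 (SE 0.75, adjusted p = 0.273 from limma). Its values in 0292, 0294 and 1087 were 5.67, 7.03 and 4.85 log2, below the 7.34 to 9.13 of control dogs, and 1111 lay among the control dogs. The arginases ARG1 and ARG2, which compete for arginine, were at 0.62 and -0.08, and ASS1 and ASL, which remake arginine from citrulline, at 0.59 and -0.42. NOS1 and NOS2, the neuronal and inducible synthases, were at 0.41 (SE 0.92) and 0.79 (SE 0.90). NOSIP and NOSTRIN, which bind the endothelial synthase and move it from the membrane, were at -0.74 and -0.46, and 0 of these synthase genes had an unadjusted p under 0.05.

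On the side of cyclic GMP, GUCY1B1, the beta subunit of soluble guanylate cyclase, was at 0.72 (SE 0.63) and GUCY1A2, an alpha subunit, at -1.30 (SE 0.70), with adjusted p of 0.599 and 0.373 from limma. Of the other phosphodiesterases, PDE1A was at 0.77 and PDE1C at -0.33 in their strongest probe sets. The other of the 2 probe sets read here as PDE1C was at -0.53. The authors list PDE1C as lower by a different probe set, which is not among these 2. PDE1A had 7 probe sets, from -1.25 to 1.94, of which 6 were higher, 2 of them at an unadjusted p under 0.05, and 1 was lower at -1.25 (unadjusted p = 0.0972 from limma). Among genes of caveolae, CAV3, the muscle form of caveolin, was at -1.72 (SE 0.76, adjusted p = 0.273 from limma), and PACSIN3, which shapes caveolar membranes, was at -2.59 (SE 0.77, adjusted p = 0.130 from limma) with no overlap between the groups. Myoglobin (MB), which binds nitric oxide in cardiomyocytes, was at -5.04 (SE 0.84, adjusted p = 0.0609 from limma) in its stronger probe set and at -1.55 (SE 0.90, adjusted p = 0.407 from limma) in the other, where the groups overlapped. GSR and CYB5R3, reductases of glutathione and of haem proteins, were at -1.80 (SE 0.70) and -1.90 (SE 0.67), although 1 of 3 probe sets of CYB5R3 was at 0.88.

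**Figure D4:**
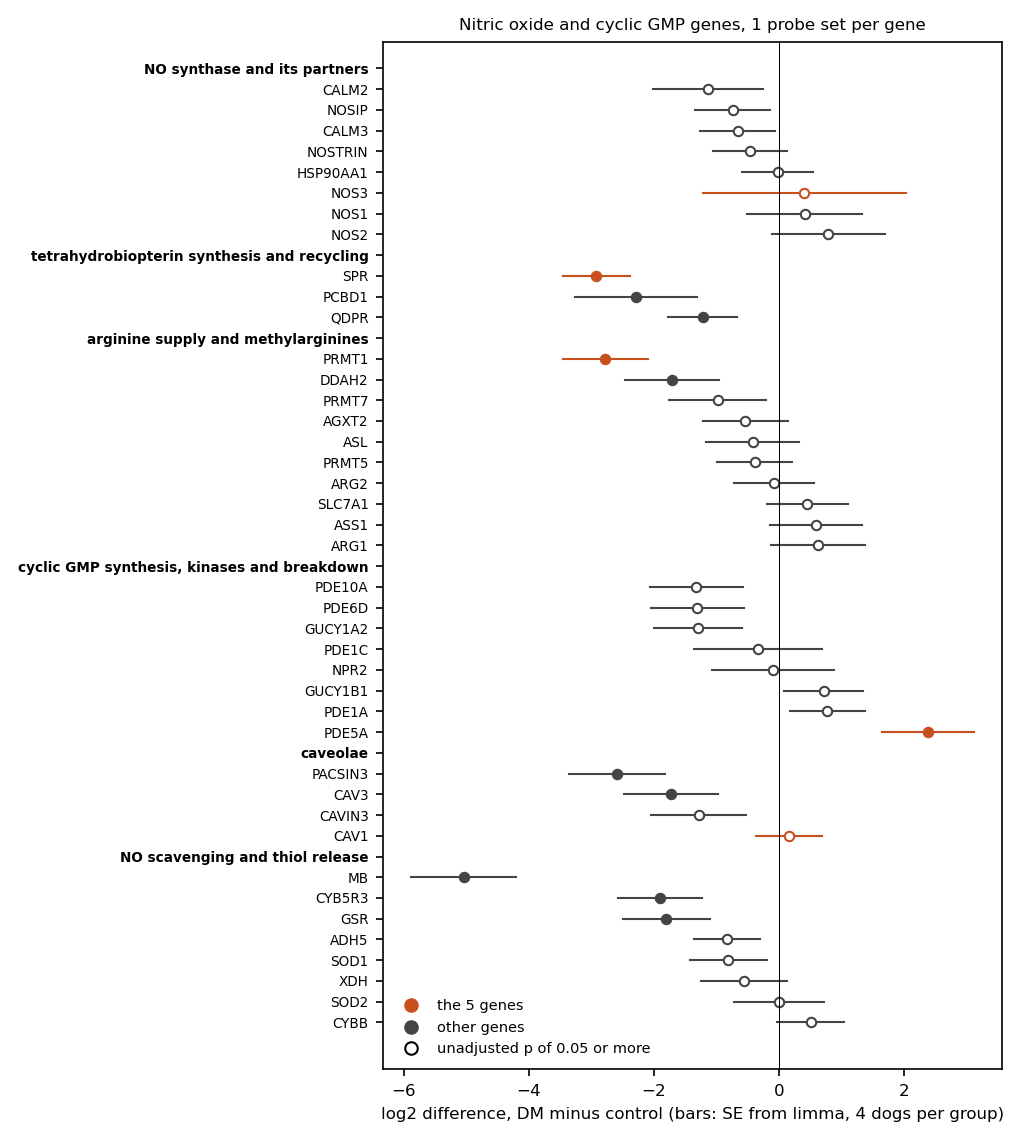
Log2 difference of DM minus control dogs (x axis) for genes of nitric oxide and cyclic GMP (y axis, in 6 groups by role), 1 probe set per gene, with SE from limma as bars. Orange marks NOS3, SPR, PRMT1, PDE5A and CAV1, and filled points have an unadjusted p under 0.05, which among the other 36 genes are 8 lower and 0 higher. MB is the lowest at -5.04.

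Markers of the cells that carry these genes also differed between dogs. Of 14 endothelial markers, 6 were on the array and 4 were lower and 2 higher in DM dogs, among them TIE1 at -2.00 and FLT1 at 2.07. Their summed normalized signal was 25441 to 42947 in control dogs and 10965 to 50784 in DM dogs. The lowest sum was that of 0294 and the highest that of 0292, the same dogs in which NOS3 1582784_s_at was lowest and highest. PECAM1, most of this sum, was 13.18 log2 in 0294, 15.55 in 0292 and 14.51 to 15.25 in the other dogs. This was 1 of 7 probe sets of PECAM1 (the strongest, with a difference of -0.27), and the others ran from -3.55 to 0.55, where the lowest, at -3.55 (SE 0.69, adjusted p = 0.0609 from limma), had no overlap between the groups. Without PECAM1 the other 5 markers summed to 2129 to 4044 in control dogs and 831 to 2856 in DM dogs. These DM sums were 2856 in 0292, 2649 in 1111, 1689 in 0294 and 831 in 1087. Thus 0292 was still the highest of the DM dogs, but not of all dogs, and the lowest was 1087 and not 0294. The part of endothelial RNA in the NOS3 values was not tested. Markers of smooth muscle and pericytes, 6 of 12 on the array, summed to 7397 to 12837 in control dogs and 4730 to 7025 in DM dogs (4 lower and 2 higher). SMTN, at -3.86, was the largest part of these sums, and ACTA2 and CALD1 were at 0.41 and 0.77. Without SMTN the sums were 4799 to 5877 and 4227 to 6803 and overlapped. All 9 cardiomyocyte markers on the array, of 12, were lower, 7 at an unadjusted p under 0.05 from limma, where 11.7% of all genes were. Their sums were 282717 to 626084 in control dogs and 127128 to 214578 in DM dogs. These values are of 1 probe set per gene, and other probe sets of these markers ran both ways. TTN had 20, of which the strongest was at -3.12 and the others ran from -1.96 to 2.42. Of 8 macrophage markers 7 were on the array, 5 higher and 2 lower, with sums of 3808 to 9460 and 19036 to 90336, of which LYZ was most in DM dogs. Without LYZ these were 1580 to 4302 and 1444 to 9362 and overlapped (exact permutation test, p = 0.143). The sums of smooth muscle, cardiomyocyte and macrophage markers were each apart between the groups (exact permutation test, p = 0.0286, and 0.0571 adjusted over the 6 lists), and without the gene that was the largest part of each list only those of cardiomyocytes were (MYH7 left out, 170210 to 512762 and 49652 to 106513, exact p = 0.0286). Leaving out these genes was chosen after seeing the data. The lists were fixed with earlier results of these data known. The authors already report TNNI3, MYL2, TNNC1, ACTC1, TTN, RYR2 and SMTN as lower in these dogs. The p values of the sums are thus descriptions and not tests. Of all 6540 genes taken singly, 568 were lower and 395 higher without overlap. Of 8 fibroblast markers 6 were on the array, 4 lower and 2 higher, with sums of 5283 to 43651 and 9993 to 32144, and of 5 adipocyte markers 2, 1 lower and 1 higher, with sums of 104 to 446 and 49.8 to 1124. No signal in the data was 0, and the weakest marker signal was 4.87, in the adipocyte list. The part of these cells in the values of SPR, PRMT1, PDE5A and CAV1 was not tested.

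The arrays differed as well. The 18 hybridization controls, transcripts added to each sample in fixed amounts, had a mean deposited signal of 13.09 to 13.36 log2 in D5, D6 and D7, 15.77 in D8 and 15.17 to 17.72 in DM dogs (exact permutation test, p = 0.0571). Each array correlated with those of its own group at a mean r of 0.773 to 0.863 in control dogs and 0.550 to 0.655 in DM dogs. Between 0.122% (0292) and 19.9% (1111) of the signals of an array were under 16. Their part in the differences of the 5 genes was not tested, and the labels name no batch of labelling, hybridization or scanning, so such a batch cannot be told apart from diabetes.

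The genes most like each of the 5 were found by Pearson r of log2 values over the 8 arrays, among 6539 other genes with 1 probe set each. For SPR these were RILPL1, TMEM179B and OTUB1 (r = 0.976, 0.973 and 0.970), but after subtraction of the group means r was 0.689, -0.21 and 0.210, so the likeness lay mostly in the group difference. For PRMT1 they were LOC479912, the glycolytic enzyme TPI1 and the ubiquitin ligase subunit RBX1 (r = 0.994, 0.986 and 0.986), and within the groups r was still 0.980, 0.958 and 0.965. PRMT1 had 185 genes with r over 0.9, SPR 78, PDE5A 1582538_at 12, and NOS3 1582783_at and CAV1 1589060_at 5 each. The most alike were HNRNPM, MVB12B and ARHGAP42 for PDE5A (r = 0.959, 0.946 and 0.938), C3H15orf40, LPCAT1 and PON1 for NOS3 (r = 0.947, 0.938 and 0.932), and AURKB, PLAAT5 and RICTOR for CAV1 (r = 0.944, 0.941 and 0.933). These are descriptions over 8 arrays that share 2 groups.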

How the data were processed

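RNA of the left ventricle of 8 dogs was measured on 1 Affymetrix Canine Genome Array each. With MAS 5.0 the authors reduced each scan to a signal intensity for every probe set, as the labels and methods state, and the deposited intensities are linear, with a mean of 500 in each array after trimming 2% at either end. RMA, which the methods also name, was not applied to them, and no detection call was used. After removal of 77 manufacturer controls, quantile normalization was run, 16 (or nothing) was added as offset, and log2 was taken. Groups were compared with limma 3.58.1 (lmFit, eBayes) in R 4.3.3, two-sided, with group alone in the design and Benjamini-Hochberg adjustment over 23836 probe sets. Single measures had an exact permutation test over all 70 ways to split the dogs 4 against 4, and figures were drawn with matplotlib 3.10.9.

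Of the 23836 probe sets, 10549 carried 1 gene symbol in the platform annotation, 138 several and 13149 none listed, and 10046 were matched by gene identifier to current RefSeq symbols (UU_Cfam_GSD_1.0). No coordinates of that assembly are given, since no build of the array's sequences is named. The 5 genes, the gene lists and the rule for named genes were chosen with earlier results of these data known. The rule took all probe sets of the 5 genes, a fixed set of pathway genes (values where an unadjusted p was under 0.05, counts otherwise), and the 3 genes most alike to each. Values of pathway genes past no threshold, and PCBD1, PACSIN3, GSR, CYB5R3 and the markers named, were added after they had been seen. Each dog was a replicate, and precision is limited by the number of arrays. The steps were tested on simulated data. Alternatives were offsets of 0 and 64, other scalings (none, median centring, hybridization controls, cyclic loess), a filter on low values, the methods' t-test (equal variances, without their variance stabilization), array weights, and each dog left out.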

Additional observations from a re-analysis of the deposited data

Results flagged for a closer look

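In 22 groups of 4 dogs (the 9 probe sets and 2 array measures, each in control and in DM dogs), 7 had 1 dog apart from the other 3 past Dixon's 95% critical value. Chance flags about 1 in 20 groups. For NOS3 1582509_at, DM dog 0294 was at 5.57 log2 and the other DM dogs at 8.20 to 8.61. For NOS3 1582783_at, control dog D5 was at 5.65 and the other control dogs at 10.44 to 11.14. For SPR, DM dog 0294 was at 6.10 and the other DM dogs at 5.67 to 5.68, all of them under the control dogs. For PDE5A 1604014_at, control dog D8 was at 6.08 and the other control dogs at 8.26 to 8.42. For CAV1 1589060_at, control dog D5 was at 13.62 and the other control dogs at 13.32 to 13.35, a small gap in a narrow group. For the mean of the hybridization controls, D8 was at 15.77 and the other control dogs at 13.09 to 13.36, and for the mean r with its own group D8 was at 0.773 and the others at 0.862 to 0.863.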

How the results depend on the processing

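SPR and PRMT1 stayed lower and PDE5A 1582538_at higher in each of 18 alternatives, with log2 differences of -4.66 to -2.17, -4.47 to -1.96 and 0.27 to 2.80. Over these, adjusted p ran from 6.46e-04 to 0.270, from 0.00130 to 0.313 and from 0.0772 to 0.830. The 0 of 9 probe sets past an adjusted p under 0.05 became 1 with an offset of 64, with cyclic loess and with the methods' t-test (SPR each time), 2 with median centring, with array weights and without D8 and 0292 together (SPR and PRMT1), 5 with scaling to hybridization controls, and 0 to 1 without each dog (SPR, without D8 or 1111). The 2 lower at an unadjusted p became 6 with scaling to hybridization controls and 3 with array weights and without D8 and 0292 together (PDE5A 1604014_at besides), and the 1 higher became 0 there, 2 without D8 and 0292 together, and 1 to 2 without each dog (CAV1 1582718_at besides, without 0292).

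Over all probe sets, 4 lower and 0 higher at an adjusted p became 0 lower with no offset and with no quantile normalization, 311 and 134 with an offset of 64, 223 and 16 with median centring, 7669 and 3 with scaling to hybridization controls, 17 and 7 with cyclic loess, 12 and 10 by the methods' t-test, 587 and 335 with array weights, and 481 and 474 without D8 and 0292 together. Without each dog they were 0 to 352 lower and 0 to 120 higher, with 215 and 108 without D8, 352 and 120 without 1111, 1 lower without 1087, and 0 without any 1 of the others. By the criteria of the methods 601 were lower and 583 higher, 681 and 286 after median centring, and 2574 and 22 with scaling to hybridization controls, while more were higher than lower with no offset (536 and 611), no quantile normalization (551 and 636) and cyclic loess (593 and 750). With an offset of 64 they were 657 and 523. Directions turned for NOS3 1582783_at (0.41) to -0.46 with median centring, -2.09 with scaling to hybridization controls, -1.09 without D8 and 0292 together, and -1.38 to 1.63 without each dog. The mean of all probe sets of a gene was -0.37 for NOS3, 0.69 for PDE5A and 0.59 for CAV1. They also turned for CAV1 1589060_at (0.17) to -0.37, -2.21 and -0.047 with median centring, scaling to hybridization controls and cyclic loess, and for CAV1 1582718_at (1.01) to -0.82 with scaling to hybridization controls. The causes were not tested. No paired analysis was possible because the labels give no numbers shared by control and DM dogs.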

Other observations

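Control dog D8, whose hybridization controls (15.77 log2) lay among those of DM dogs (15.17 to 17.72), did not lie on the DM side in all of the 5 genes. For SPR it was at 8.73 log2, among the control dogs at 8.55 to 8.84 and above the DM dogs at 5.67 to 6.10. For PDE5A 1582538_at it was at 5.42, the lowest of all dogs, while DM dogs were the highest. For PRMT1 it was at 7.57, the lowest of the control dogs (7.57 to 9.04) and nearest to the DM dogs (4.61 to 6.69), and for PDE5A 1604014_at at 6.08 it was among the DM dogs (5.24 to 8.16). For QDPR it was at 11.62, between the other control dogs (11.87 to 12.39) and the DM dogs (10.54 to 11.28), and for MB at 12.07, between 13.75 to 15.38 and 7.43 to 10.23. PACSIN3 of D8, at 8.46, was also between the groups. D8 lay within the DM range for GSR at 9.13 (DM 8.65 to 9.62) and CYB5R3 at 11.78 (DM 10.36 to 12.06). The same held for PCBD1 at 9.60 (DM 5.03 to 9.84) and CAV3 at 10.58 (DM 7.29 to 11.1). Its DDAH2, at 9.13, was the highest of all dogs. These are the values of 1 dog and were not tested.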
